A study of Mus musculus with 28 samples.

Results

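The 9 mature miRNAs described here (mmu-miR-431-5p, mmu-miR-431-3p, mmu-miR-433-3p, mmu-miR-127-5p, mmu-miR-127-3p, mmu-miR-434-5p, mmu-miR-434-3p, mmu-miR-136-5p and mmu-miR-136-3p, named without the species prefix below) come from 5 hairpins that lie antisense to the imprinted gene Rtl1. They were chosen by name, as the mature miRNAs of those hairpins, from 1485 mature names with at least 1 read. Small RNA was counted in 28 libraries of left ventricular wall from the remote zone of mice of the outbred stock Hsd:ICR(CD-1). Myocardial infarction (MI), made by ligation of the left anterior descending coronary artery, or a sham operation was done on postnatal day 7 (P7) or 1 (P1), and tissue was taken 3 or 21 days later. At 3 days the groups MI P7 and sham P7 (age 10 days) and MI P1 and sham P1 (age 4 days) held 4 libraries each. At 21 days the same 4 groups, at 28 and 22 days of age, held 3 libraries each. The labels name no genotype and do not say outright that each library is a different mouse, so p-values reflect only how these samples vary, which may be technical. Pups stayed with their own litter. The 3-day and 21-day libraries were made with different kits (Qiagen QIAseq and Illumina TruSeq Small RNA), so no level is compared between them.

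The Dlk1-Dio3 domain of mouse chromosome 12 is imprinted: its protein-coding genes, among them Dlk1 and Rtl1, are expressed from the paternal copy, and its long noncoding RNAs and miRNAs from the maternal copy. Rtl1 (retrotransposon Gag-like 1) encodes a protein known for its roles in placenta and fetal muscle. Because the miRNAs of its antisense strand are read from the same DNA, they match the Rtl1 mRNA along their whole length, and in the mouse they are known to direct its cleavage. Levels of miRNAs of the whole domain are known to be high in fetal and neonatal tissue. Rtl1 mRNA itself was not analysed here.

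The mature sequences were taken from RefSeq on build GRCm38.p6, where all 9 members were found. They are shown because each is at the same time the miRNA and the mirror of its own Rtl1 site; capitals mark the seed, bases 2 to 8, the stretch with which a miRNA first pairs to its targets.
miR-431-5p: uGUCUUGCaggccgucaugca
miR-431-3p: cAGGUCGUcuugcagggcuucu
miR-433-3p: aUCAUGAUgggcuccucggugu
miR-127-5p: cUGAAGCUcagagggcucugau
miR-127-3p: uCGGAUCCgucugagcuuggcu
miR-434-5p: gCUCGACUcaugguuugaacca
miR-434-3p: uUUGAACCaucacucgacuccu
miR-136-5p: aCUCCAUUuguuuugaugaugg
miR-136-3p: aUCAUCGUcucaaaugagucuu

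The 9 members carried 9 distinct seeds, and 0 other mature names in the files shared any of them. The closest other mouse mature miRNA in the RefSeq table was 6 or more edits away from each member, so reads were unlikely to be split with a near-identical copy. Each member was listed under 1 hairpin. Their G and C content ran between 36.4% (both arms of mir-136) and 59.1% (miR-127-3p and miR-431-3p).

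All 5 hairpins lay on the plus strand inside the 5232-base Rtl1 coding sequence, which is read from the minus strand (chr12:109590172-109595403, GRCm38, GENCODE vM21), so each is exonic and antisense. In the order of the plus strand they were mir-431 (chr12:109590447-109590537), mir-433 (chr12:109591715-109591838), mir-127 (chr12:109592846-109592915), mir-434 (chr12:109594506-109594599) and mir-136 (chr12:109595327-109595388). Together they spanned 4942 bases, with 727 to 1590 bases between neighbours. The reverse complement of all 9 mature sequences was found in the Rtl1 transcript, 1 time each. The Rtl1 sites of miR-127-3p (chr12:109592888-109592909) and miR-136-3p (chr12:109595366-109595387), the members with the steadiest result below, are shown as they stand in the Rtl1 mRNA, in DNA letters, with the bases that face the seed in capitals.
Rtl1 site of miR-127-3p: agccaagctcagacGGATCCGa
Rtl1 site of miR-136-3p: aagactcatttgagACGATGAt

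**Figure D1:**
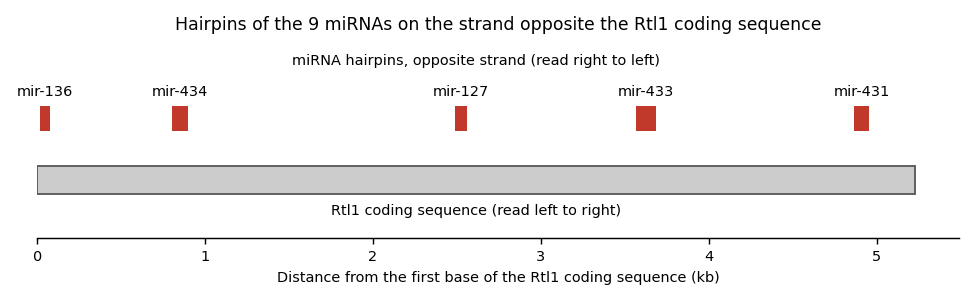
Position of the 5 hairpins (red) against the Rtl1 coding sequence (grey), drawn to scale as the distance in kb from its first coding base. The hairpin of miR-136 lies 15 to 76 bases from the start of the coding sequence and that of miR-431 4866 to 4956 bases from it.

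For 4 of the hairpins both arms are members, which allows the arms to be set against each other. The hairpins of mir-127 and mir-434 are shown with their mature arms in capitals, the 5p arm first, because their arm shares differed between 3-day libraries.
mir-127: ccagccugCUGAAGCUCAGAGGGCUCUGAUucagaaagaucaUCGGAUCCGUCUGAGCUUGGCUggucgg
mir-434: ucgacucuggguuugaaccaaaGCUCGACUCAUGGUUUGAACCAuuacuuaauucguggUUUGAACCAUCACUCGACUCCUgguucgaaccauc

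Deposited counts per library ran between 1.29 and 13.0 M at 3 days and between 18.2 and 26.9 M at 21 days (M, 1e6). Levels below are CPM, counts scaled to a library of 1 M, after TMM scaling, which corrects for a few abundant miRNAs taking up reads. The 9 members together took 0.0887 to 0.340% of a library at 3 days and 0.225 to 0.782% at 21 days. The striated muscle miRNA miR-133a-3p, a defining marker of heart muscle, was present in every library, as the labelled tissue requires. A miRNA was called where the Benjamini-Hochberg adjusted p of edgeR's quasi-likelihood test, over the 446 miRNAs tested at 3 days or the 598 tested at 21 days, was under 0.05. All 9 members were tested in both follow-ups.

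At 21 days after the operation, 5 of the 9 members were higher in MI P7 hearts than in sham P7 hearts; the fitted changes of the other 4 were positive but missed the threshold. The called members were both arms of mir-127, both arms of mir-136, and miR-434-5p. Over all tested miRNAs, 22.1% were called in this comparison and 13.2% were called higher. In bulk tissue, more RNA per cell and more cells of a type that makes it cannot be told apart.

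miR-127-3p, the most abundant member in each of the 12 libraries of 21 days, had 4130.2, 2769.6 and 5944 CPM in MI P7 hearts, against 1786, 1784 and 2042 CPM in sham P7 hearts. The groups did not overlap, and the MI P7 libraries were spread more widely (mean 4281 ± 1592 CPM, SD, n = 3) than the sham P7 libraries (1871 ± 148 CPM, SD, n = 3). Its log2 fold change was 1.19 ± 0.25 (SE), with an edgeR adjusted p of 0.00844. The call held in 16 of 16 alternative analyses (edgeR, DESeq2 or limma-voom), though the largest adjusted p among them was 0.0498, just under the threshold.

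miR-127-5p, from the other arm of that hairpin, had 41.7, 34.8 and 35.0 CPM in MI P7 hearts and 24.5, 16.9 and 21.5 CPM in sham P7 hearts. Again every MI P7 library lay above every sham P7 library. The log2 fold change was 0.83 ± 0.20 (SE), with an edgeR adjusted p of 0.0124; the call held in 14 of 16 alternatives.

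miR-136-3p had 462, 329.9 and 397 CPM in MI P7 hearts and 222, 192 and 228 CPM in sham P7 hearts. The lowest MI P7 library was thus above the highest sham P7 library. Its log2 fold change was 0.89 ± 0.19 (SE), and the edgeR adjusted p was 0.00844. The call held in 16 of 16 alternatives (edgeR, DESeq2 or limma-voom), again with a largest adjusted p of 0.0498. The other arm, miR-136-5p, had 222, 146 and 145 CPM in MI P7 hearts and 109, 90.3 and 119 CPM in sham P7 hearts, with a log2 fold change of 0.69 ± 0.20 (SE, edgeR adjusted p = 0.0260). Its groups were also apart, but 1 MI P7 library stood well above the other two, and its call held in 11 of 16 alternatives.

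miR-434-5p had 121, 90.7 and 87.6 CPM in MI P7 hearts and 54.4, 53.2 and 58.5 CPM in sham P7 hearts. The groups did not overlap, with a log2 fold change of 0.85 ± 0.22 (SE) and an edgeR adjusted p of 0.0152, and the call held in 13 of 16 alternatives. Its partner arm miR-434-3p missed the threshold, with 1004.3, 712 and 454 CPM in MI P7 hearts against 457, 410.6 and 489 CPM in sham P7 hearts (log2 fold change 0.68 ± 0.24, SE, edgeR adjusted p = 0.0598). MI P7 replicate 3 lay within the sham P7 range.

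The members of the other 2 hairpins were not called. miR-431-5p, which in mouse muscle stem cells is known to repress Pax7, had 57.8, 49.0 and 29.2 CPM in MI P7 hearts and 30.5, 36.4 and 40.01 CPM in sham P7 hearts, so the groups overlapped (log2 fold change 0.35 ± 0.23, SE, edgeR adjusted p = 0.294). The scarce miR-431-3p, at 0.989 to 3.12 CPM in these 6 libraries, had a log2 fold change of 0.81 ± 0.33 (SE, edgeR adjusted p = 0.0939). miR-433-3p, described in mouse heart as promoting fibroblast activation, had 10.2, 9.18 and 6.94 CPM in MI P7 hearts and 6.58, 7.25 and 6.54 CPM in sham P7 hearts (0.37 ± 0.25, SE, edgeR adjusted p = 0.301). The ranges of MI P7 and sham P7 hearts were apart for 5 of the 9 members, against 35.3% of all tested miRNAs.

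**Figure D2:**
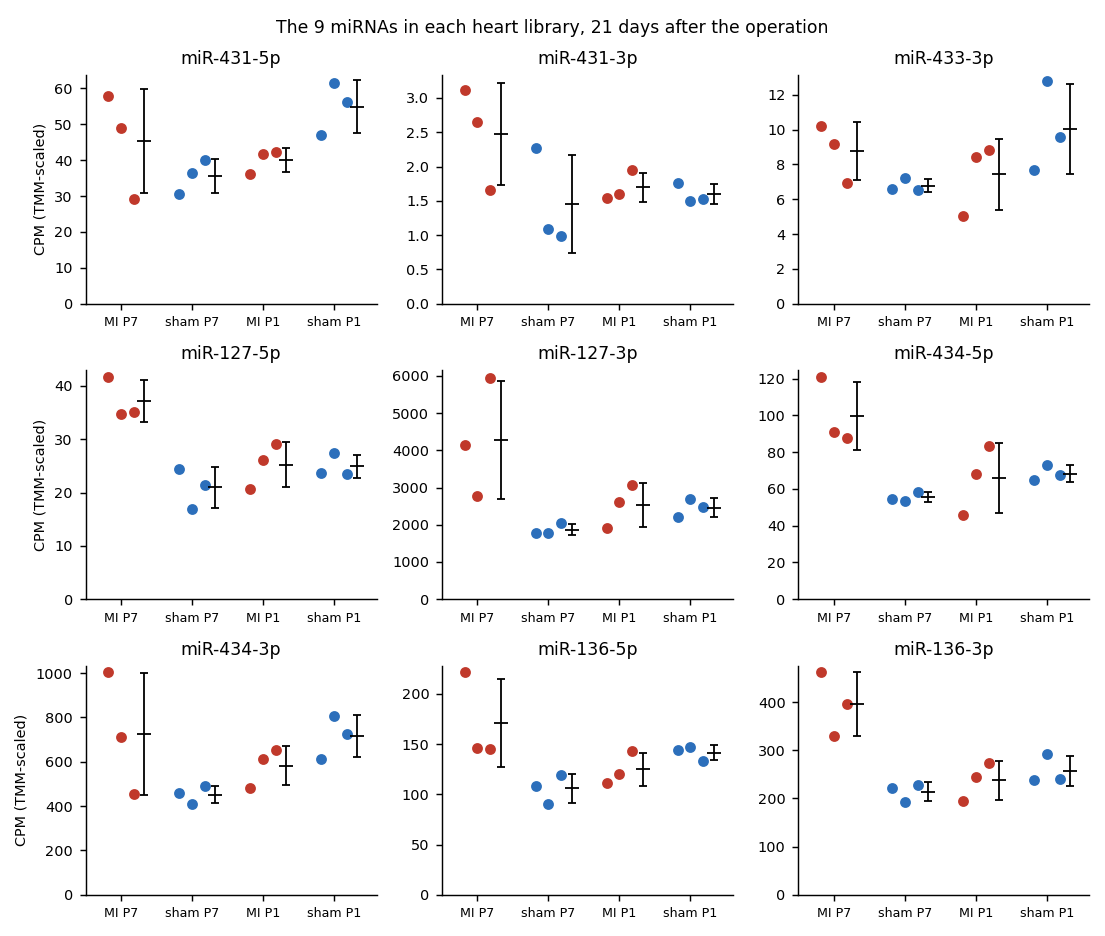
CPM of each member in every 21-day library (red, MI; blue, sham), with the mean and SD of each group in black (n = 3 libraries). MI P7 libraries lie above all sham P7 libraries for both arms of mir-127, both arms of mir-136 and miR-434-5p, and 1 MI P7 library reaches 5944 CPM of miR-127-3p.

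The 3 MI P7 libraries differed among themselves. Replicate 1 was the highest of the 3 for 8 of the 9 members. Replicate 3 was the highest for miR-127-3p and the lowest for 6 members, among them miR-434-3p, and the members took 78.7% of its Dlk1-Dio3 miRNA counts, against 59.4 to 67.1% in replicates 1 and 2 and 61.9 to 62.7% in sham P7 hearts. Without replicate 3, 8 members were called, beside 25.2% of all tested miRNAs. Without replicate 1, 3 members were called, beside 9.76% of all. Without sham P7 replicate 2, 2 members were called (miR-127-3p and miR-136-3p), beside 10.6% of all. The fit with only the groups compared also called those 2, beside 5.18% of all miRNAs it tested.

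Some marker miRNAs of cell types moved in the same comparison. The summed level of the 5 fibroblast-associated miRNAs was 19476 to 45373 CPM in MI P7 hearts and 10411 to 11451 CPM in sham P7 hearts, with 0 of the 5 absent from every library. The summed level of the 5 cardiomyocyte miRNAs was 55970 to 92571 CPM in MI P7 hearts and 133851 to 157386 CPM in sham P7 hearts. Most of that sum is miR-133a-3p; the ranges of the other 4 (miR-1a-3p, miR-208a-3p, miR-208b-3p and miR-499-5p) overlapped between the groups. The endothelial sum (2 miRNAs) was 31860 to 50266 CPM in MI P7 hearts and 51937 to 58307 CPM in sham P7 hearts. Most of it is miR-126a-5p, whose ranges overlapped between the groups, while miR-126a-3p was lower in every MI P7 library. The neural sum (5 miRNAs) was 137 to 229 CPM in MI P7 hearts and 262 to 399 CPM in sham P7 hearts. Most of that sum is miR-128-3p. It and both arms of miR-9 were lower in every MI P7 library, and the ranges of miR-124-3p and miR-219a-5p overlapped. The part of these marker levels in the members' result was not tested. Each 21-day group also had a title code of its own, the leading number of the sample titles, whose meaning the labels do not give; code and group cannot be told apart.

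After MI at P1 no member was called at 21 days. By edgeR 0 of the 9 members were called, as by DESeq2 and limma-voom, against 0.502% of all tested miRNAs by edgeR. An unadjusted edgeR p under 0.05 was reached by 0 of the 9, against 7.19% of all tested miRNAs. Fitted log2 fold changes lay between -0.46 and 0.09. For miR-127-3p, MI P1 hearts had 1908, 2616 and 3078 CPM and sham P1 hearts 2197, 2696 and 2489.6 CPM, with a log2 fold change of 0.04 ± 0.25 (SE, edgeR adjusted p = 0.989). For miR-136-3p, MI P1 hearts had 194, 245 and 273 CPM and sham P1 hearts 239, 293 and 239.6 CPM. The groups overlapped for 8 of the 9 members, against 17.4% of all tested miRNAs with ranges apart. The exception was miR-431-5p, with 36.1, 41.7 and 42.2 CPM in MI P1 hearts, all below the 47.0, 61.5 and 56.2 CPM of sham P1 hearts (log2 fold change -0.46 ± 0.23, SE, edgeR adjusted p = 0.697).

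The difference between the effects, MI at P7 minus MI at P1, was tested as an interaction in the same fit. Fitted differences were positive for all 9 members, between 0.71 and 1.15 on the log2 scale, but 1 of the 9 was called, against 9.87% of all tested miRNAs and 7.86% called positive. That member was miR-136-3p, with a difference of 1.00 ± 0.26 (SE) and an edgeR adjusted p of 0.0320. miR-127-3p had a difference of 1.15 ± 0.35 (SE) that missed the threshold (edgeR adjusted p = 0.0551). At an unadjusted p under 0.05, 8 of the 9 passed, against 166 of all 598 tested miRNAs (27.8%).

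The interaction of miR-136-3p lay close to the threshold, and the number of calls moved both ways with the settings. With sequencing lane as a term its difference was 1.03 and missed the threshold (edgeR adjusted p = 0.0877). It also missed it when any of 7 single libraries was left out (difference 0.86 to 1.07, edgeR adjusted p 0.0621 to 0.0911): MI P7 replicate 1, any sham P7 replicate, MI P1 replicates 1 and 2, or sham P1 replicate 2. More members were called by DESeq2 (5, beside 15.2% of all tested miRNAs) and with total count scaling (8, beside 22.9%). A mean of at least 10 CPM gave 4 calls, beside 12.7%. Leaving out MI P7 replicate 3 gave 6, beside 15.7%, and leaving out replicate 2 gave 4, beside 19.1%.

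**Figure D3:**
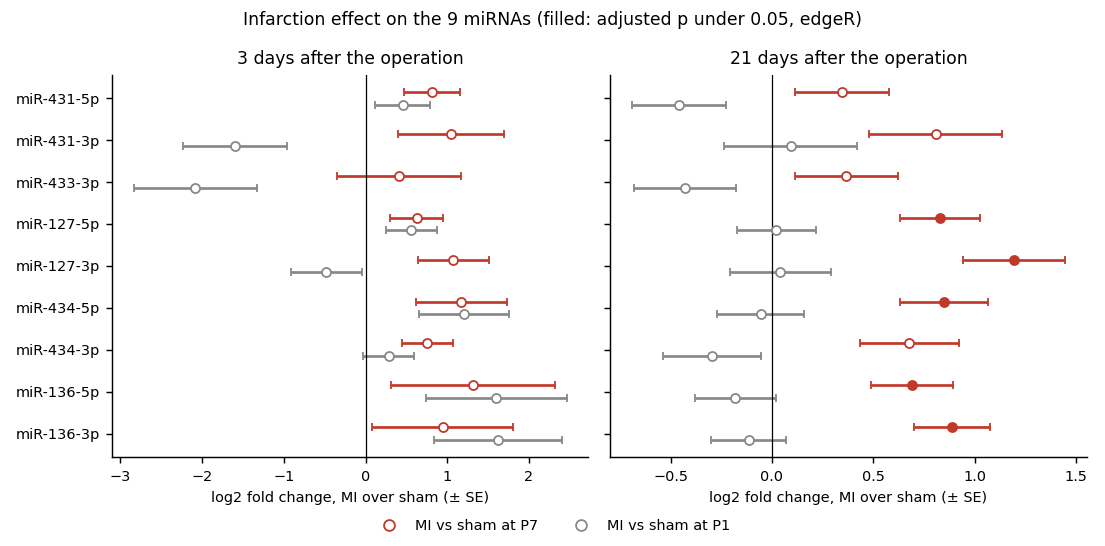
Log2 fold change of each member, MI over sham, with its SE, for operations at P7 (red) and P1 (grey), at 3 days (left) and 21 days (right); filled points have an adjusted p under 0.05. At 21 days all 9 P7 values are positive, 0.35 to 1.19, and 5 are filled, while P1 values lie between -0.46 and 0.09.

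The sham groups of 21 days were also set against each other. They differ in day of operation, in age when tissue was taken and in title code, which cannot be told apart. All 9 members had lower fitted levels in sham P7 hearts (28 days old) than in sham P1 hearts (22 days old), by 0.18 to 0.66 on the log2 scale, and 0 were called by edgeR, DESeq2 or limma-voom; 3 had an unadjusted p under 0.05. By edgeR 0% of all tested miRNAs were called. The ranges were apart for 7 of the 9 members, all lower in sham P7 hearts, against 26.9% of all tested miRNAs. For miR-434-3p, sham P7 hearts had 457, 410.6 and 489 CPM and sham P1 hearts 615, 807 and 726 CPM (log2 fold change -0.66 ± 0.24, SE, edgeR adjusted p = 0.240). This comparison shares the sham P7 libraries with the MI comparison at P7. By mean level, sham P7 was the lowest of the 4 groups for all 9 members, and MI P7 was the highest for 7 and sham P1 for 2 (miR-431-5p and miR-433-3p). MI P7 stood apart from the next group for miR-127-5p, miR-434-5p and miR-136-3p. For the other members the ranges of the 2 highest groups overlapped. No share over all tested miRNAs was taken for these orders of the groups.

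The neighbouring miRNAs of the domain were counted from lists of a proximal group (hairpins in and near Meg3 and Rian) and a distal group (mir-379 to mir-410). In MI P7 against sham P7 hearts at 21 days, 4 of the 9 tested proximal miRNAs and 21 of the 48 tested distal miRNAs were called, all higher. The median log2 fold change was 0.81 for the 9 members, 0.75 for the proximal and 0.76 for the distal miRNAs, and 0.03 for all tested miRNAs. Called proximal miRNAs ran between miR-337-5p at 0.75 ± 0.19 and miR-337-3p at 1.82 ± 0.40, and called distal miRNAs between miR-369-3p at 0.66 ± 0.17 and miR-382-3p at 1.49 ± 0.28 (log2 fold change ± SE). In the interaction, 2 proximal and 11 distal miRNAs were called, all positive, with medians of 0.97 and 0.86. In MI P1 against sham P1 hearts, 0 of both lists were called by edgeR, with medians of -0.13 and -0.21. An unadjusted edgeR p under 0.05 was reached by 1 proximal and 2 distal miRNAs, against 7.19% of all tested miRNAs. No test was made that sets the members apart from the rest of the domain.

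The miRNAs whose log2 CPM ran most like the mean of the 9 members over the 12 libraries of 21 days were miR-410-3p (Pearson r = 0.95), miR-337-5p (0.94), miR-341-3p (0.93), miR-214-5p (0.91) and miR-300-3p (0.91). Of these, 4 belong to the domain; miR-214-5p, listed among the fibroblast-associated miRNAs, does not. After centring on group means, r was 0.92 for miR-410-3p, 0.91 for miR-300-3p and 0.73 for miR-214-5p. These are descriptions over libraries that share their groups and scaling.

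At 3 days the libraries fell into unlike kinds within the sham P1 group, and this touches every comparison with it. Replicates 3 and 4 carry title code 1103 and replicates 1 and 2 code 1078. The other 3-day groups have codes of their own as well. All sham P7 libraries carry code 1075, and MI P7 libraries carry 1077, 1088 or 1090. At 3 days, too, code and group therefore cannot be told apart. Deposited counts were 1.56 and 2.65 M in the code 1103 libraries and 6.25 and 9.26 M in the code 1078 libraries. MI P7 libraries had 1.29 to 1.95 M, sham P7 libraries 1.61 to 3.42 M and MI P1 libraries 5.61 to 13.0 M. Comparisons of P7 with P1 at 3 days thus also carry a difference in depth, whose part was not tested. The endothelial marker miR-126a-3p was at 3684 and 5957 CPM in the code 1103 libraries and at 111874 and 147418 CPM in the code 1078 libraries.

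The members split the same way, and by arm. In code 1103 libraries, miR-433-3p was at 29.9 and 27.4 CPM, against 1.86 and 3.57 CPM in code 1078 libraries. miR-434-5p went the other way, at 41.5 and 94.6 CPM in code 1103 and 346 and 387 CPM in code 1078. In all, 4 members were higher in both code 1103 libraries (miR-431-3p, miR-433-3p, miR-127-3p and miR-434-3p). Another 4 were lower (miR-127-5p, miR-434-5p and both arms of mir-136) and miR-431-5p overlapped. The share of all tested miRNAs that split this way was not taken. Ranges of so few libraries separate easily, so the split is not read as particular to the members. miR-136-5p had 0 reads in both code 1103 libraries, where 3 reads, the limit that a count of 0 allows, come to 2.89 and 1.61 CPM.

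**Figure D4:**
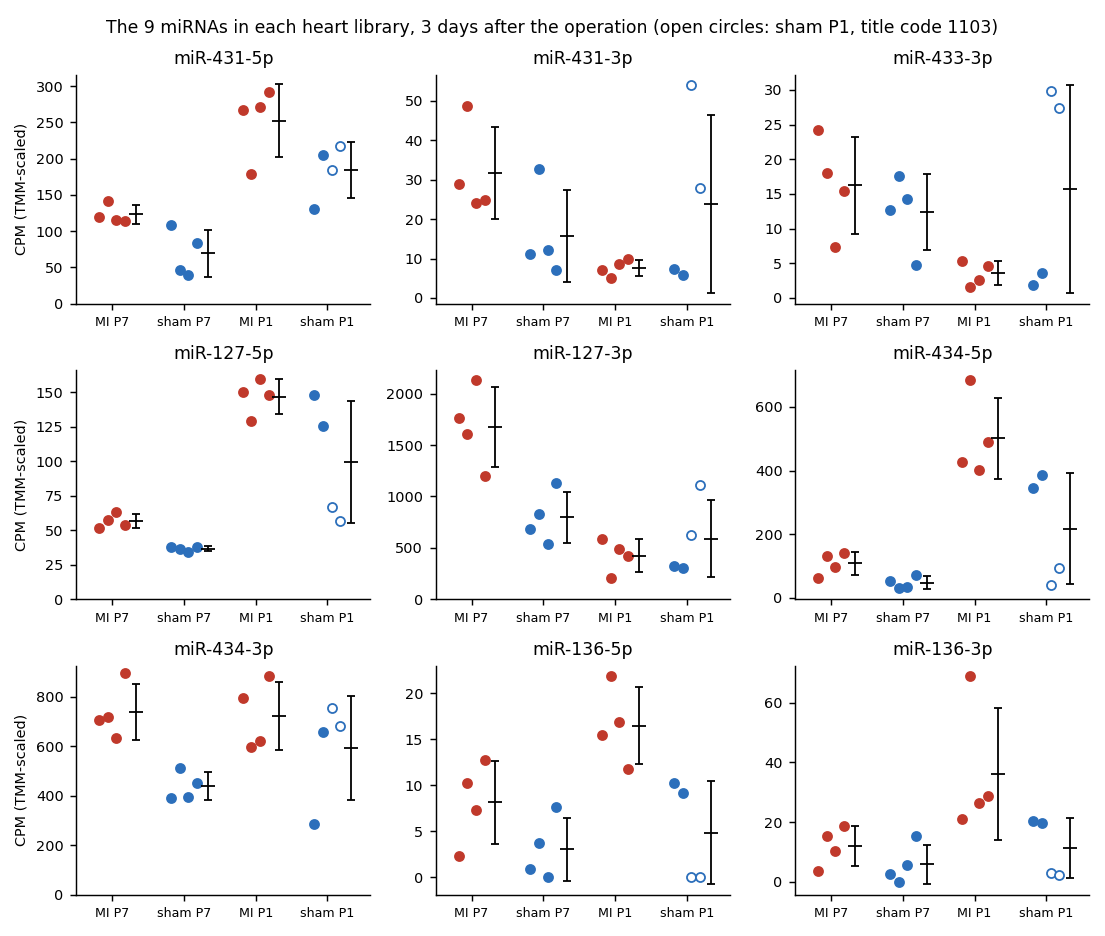
CPM of each member in every 3-day library (red, MI; blue, sham; open circles, sham P1 libraries with title code 1103), with the mean and SD of each group in black (n = 4 libraries). Within sham P1 the open and filled circles separate for 8 of the 9 members, for miR-434-5p at 41.5 and 94.6 CPM against 346 and 387 CPM. No share over all tested miRNAs was taken for this split.

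In MI P7 against sham P7 hearts at 3 days, all 9 fitted log2 fold changes were positive, between 0.41 and 1.31, but 0 of the 9 were called by edgeR, DESeq2 or limma-voom, against 5.61% of all tested miRNAs by edgeR. An unadjusted p under 0.05 was reached by 3. miR-127-3p had 1761, 1608, 2133 and 1200.03 CPM in MI P7 hearts and 687, 832, 538.8 and 1127 CPM in sham P7 hearts. The groups did not overlap, with a log2 fold change of 1.07 ± 0.44 (SE, edgeR adjusted p = 0.168). miR-434-3p, with 705, 718, 632 and 894 CPM in MI P7 hearts and 392.4, 512, 396 and 449 CPM in sham P7 hearts, was also apart (0.75 ± 0.31, SE, edgeR adjusted p = 0.172).

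The same held for miR-431-5p and miR-127-5p. miR-431-5p had 120.02, 142, 116 and 114 CPM in MI P7 hearts and 108, 46.6, 39.5 and 84.3 CPM in sham P7 hearts (0.81 ± 0.35, SE, edgeR adjusted p = 0.183). miR-127-5p had 51.9, 57.3, 63.0 and 53.8 CPM in MI P7 hearts and 38.1, 36.5, 34.0 and 37.5 CPM in sham P7 hearts (0.63 ± 0.32, SE, edgeR adjusted p = 0.302). In all, 4 of the 9 members had ranges apart, against 20.6% of all tested miRNAs. The pair miR-136-5p and miR-136-3p, with 0 to 26 reads per library in sham P7 hearts, were too scarce for a narrow estimate (1.31 ± 1.01 and 0.94 ± 0.86, log2 ± SE).

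Total count scaling, which does not correct for abundant miRNAs, called 4 members in this comparison (miR-127-3p, miR-127-5p, miR-431-5p and miR-434-3p), but it called 58 of all 446 tested miRNAs (13.0%) and moved their median to 0.47, against -0.01 under TMM. The fit of only the groups compared called 2 members (miR-127-3p and miR-434-5p) and 19.6% of all miRNAs it tested. With libraries of a title code treated as a block, limma-voom called 0 members and 0% of all tested miRNAs. The sham P1 libraries share the fit: without those of code 1103, the same 2 members and 19.3% of all tested miRNAs were called, and without those of code 1078, 3 members (miR-434-3p as well) and 19.2%. Of the proximal list 2 of 9 tested and of the distal list 9 of 41 tested were called, all higher, with medians of 0.90 and 1.22 beside 0.94 for the 9 members and -0.01 for all tested miRNAs. Called examples were miR-540-3p at 2.53 ± 0.40 and miR-666-3p at 2.195 ± 0.47 (log2 fold change ± SE). The fibroblast marker sum was 6109 to 9854 CPM in MI P7 hearts and 2394 to 4616 CPM in sham P7 hearts. The cardiomyocyte sum was 153150 to 169681 CPM in MI P7 hearts and 210790 to 324311 CPM in sham P7 hearts. Most of the cardiomyocyte sum is miR-133a-3p, and the ranges of miR-1a-3p, miR-208a-3p, miR-208b-3p and miR-499-5p overlapped between the groups. The part of these marker sums in the members' values was not tested.

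In MI P1 against sham P1 hearts at 3 days, 0 of the 9 members were called by edgeR and limma-voom. Of all tested miRNAs, edgeR called 18.4%. DESeq2 called 1 member (miR-433-3p, lower), beside 27.4% of all tested miRNAs. An unadjusted edgeR p under 0.05 was reached by 3 of the 9, against 35.7% of all tested miRNAs. Fitted values went both ways, from the lowest, miR-433-3p at -2.08 ± 0.75, to the highest, miR-136-3p at 1.62 ± 0.78 (log2 fold change ± SE). miR-433-3p had 5.32, 1.58, 2.64 and 4.63 CPM in MI P1 hearts and 1.86, 3.57, 29.9 and 27.4 CPM in sham P1 hearts. MI P1 hearts thus lay near the code 1078 sham libraries and below the code 1103 ones. miR-434-5p had 427, 683, 403 and 489.9 CPM in MI P1 hearts and 346, 387, 41.5 and 94.6 CPM in sham P1 hearts, again nearest to code 1078. Without the code 1078 libraries 7 members were called, 4 higher and 3 lower, but so were 348 of all 459 tested miRNAs (75.8%); without the code 1103 libraries 0 members and 0 of all 483 tested miRNAs were called.

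The ranges of MI P1 and sham P1 hearts were apart for 3 members, all higher in MI P1 hearts (miR-434-5p and both arms of mir-136), against 13% of all tested miRNAs. Leaving out sham P1 replicate 1 gave 2 calls, beside 164 of 456 miRNAs (36.0%), and leaving out sham P1 replicate 2 gave 3, beside 162 of 454 (35.7%). The interaction of the MI effects called 0 of the 9 members by edgeR, DESeq2 and limma-voom, and 0% of all tested miRNAs by edgeR. An unadjusted edgeR p under 0.05 was reached by 3 of the 9, against 15.9% of all tested miRNAs. Without the code 1078 libraries it called 7 members, beside 301 of all 459 tested miRNAs (65.6%).

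In sham P7 against sham P1 hearts at 3 days, 3 of the 9 members were called, all lower in sham P7, against 22% of all tested miRNAs and 18.2% called lower. miR-127-5p had 38.1, 36.5, 34.0 and 37.5 CPM in sham P7 hearts and 148, 125, 66.5 and 57.0 CPM in sham P1 hearts, with a log2 fold change of -1.44 ± 0.32 (SE, edgeR adjusted p = 0.0105). Every sham P7 library lay below every sham P1 library, though the code 1103 libraries were nearest. miR-431-5p was apart in the same way, with 108, 46.6, 39.5 and 84.3 CPM in sham P7 hearts and 131, 205, 184 and 217 CPM in sham P1 hearts (-1.40 ± 0.35, SE, edgeR adjusted p = 0.0189). These were the 2 members with ranges apart, against 11% of all tested miRNAs.

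miR-434-5p, the remaining call, had 53.4, 30.2, 34.0 and 72.6 CPM in sham P7 hearts and 346, 387, 41.5 and 94.6 CPM in sham P1 hearts (-2.19 ± 0.57, SE, edgeR adjusted p = 0.0231). Its groups overlapped through the code 1103 libraries. Without the code 1078 libraries its log2 fold change was -0.52 (edgeR adjusted p = 0.428) and that of miR-127-5p was -0.73 (edgeR adjusted p = 0.101). By limma-voom 2 of the 3 calls held (miR-434-5p had an adjusted p of 0.0522). With libraries of a title code also treated as a block, 0 held, with log2 fold changes of -1.33 for miR-127-5p, -1.37 for miR-431-5p and -1.67 for miR-434-5p, and 0% of all tested miRNAs were called. In the edgeR fit of only the groups compared 0 held as well, with -1.13, -1.19 and -1.80 for the same members, and 0% of all miRNAs it tested were called. Without sham P7 replicate 2 or replicate 3, 1 call held, that of miR-127-5p, beside 3.66 and 4.95% of all tested miRNAs. Of the proximal list, 2 of the 9 tested were called lower, with a median of -0.74, and of the distal list 19 of the 41 tested, with a median of -1.32, beside -0.71 for the members and -0.53 for all tested miRNAs.

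By mean level at 3 days, MI P1 was the highest of the 4 groups for 5 members (miR-431-5p, miR-127-5p, miR-434-5p and both arms of mir-136) and MI P7 for the other 4. MI P1 stood apart from the next group for miR-434-5p and miR-136-3p, and MI P7 for miR-127-3p. Elsewhere the ranges of the 2 highest groups overlapped. The share of all tested miRNAs with such orders was not taken. The miRNAs most like the mean of the 9 members over the 16 libraries were miR-134-5p (Pearson r = 0.94), miR-494-3p (0.93), miR-132-5p (0.92), miR-409-3p (0.91) and miR-666-3p (0.88), of which miR-132-5p lies outside the domain. Centred on group means, r for these was between 0.57 and 0.74. The members themselves did not all run together at 3 days. Pearson r between pairs went from -0.79 (miR-433-3p with miR-434-5p) to 0.92 (miR-127-5p with miR-434-5p), so their mean does not stand for each member. These too are descriptions over libraries that share their groups and scaling.

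The arms of a hairpin are cut from the same precursor, so the ratio of 5p to 3p reads is a measure within a library. Among the 3-day libraries, miR-127-5p and miR-127-3p ran against each other (Pearson r = -0.62 of log2 CPM over 16 libraries). The 5p arm took 2.86 to 4.29% of the mir-127 reads in MI P7 hearts and 3.22 to 5.94% in sham P7 hearts. In MI P1 hearts it took 20.4 to 38.0%, and in sham P1 hearts 4.86 to 9.69% in code 1103 libraries and 29.4 to 31.2% in code 1078 libraries.

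The hairpin of mir-434 showed the same split. Its 5p arm took 8.26 to 15.4% of reads in MI P7 hearts, 5.57 to 13.9% in sham P7 hearts and 35.0 to 53.5% in MI P1 hearts. In sham P1 hearts it took 5.22 and 12.2% in code 1103 libraries and 37.0 and 54.9% in code 1078 libraries. For mir-431 the 5p arm, the more abundant, took 96.7 to 97.4% in MI P1 hearts, and in sham P1 hearts 77.3 and 88.6% in code 1103 and 94.8 and 97.2% in code 1078 libraries. A given hairpin thus had unlike arm shares in libraries of the same age and operation. For mir-127 and mir-434 the lower 5p shares were in the P7 and code 1103 libraries, which had the lower deposited counts. The part of depth in the arm shares was not tested.

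**Figure D5:**
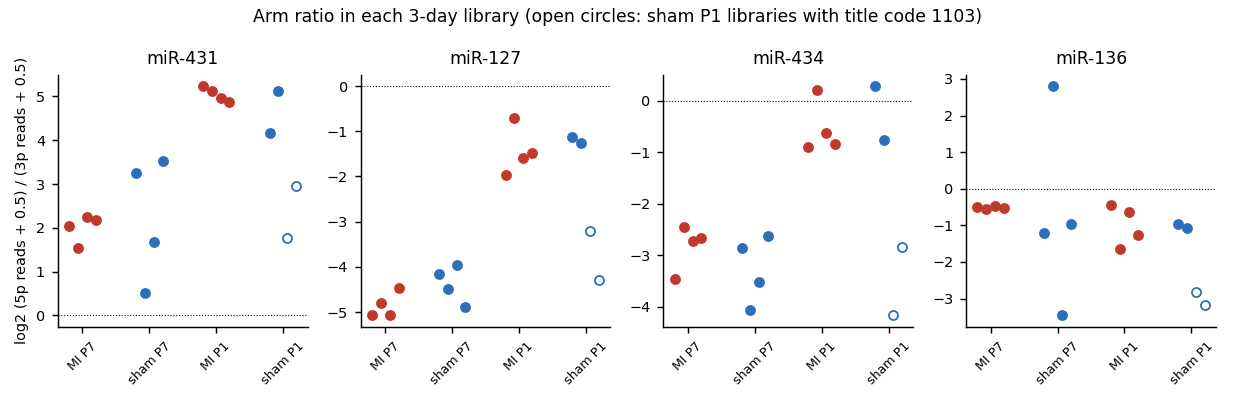
Log2 ratio of 5p to 3p reads of 4 hairpins in each 3-day library (0.5 reads added to each arm; red, MI; blue, sham; open circles, sham P1 libraries with title code 1103). For mir-127 the code 1103 libraries lie at -3.21 and -4.28, near the P7 libraries, and the code 1078 libraries at -1.14 and -1.26, among the MI P1 libraries.

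The arm ratio was tested in 3 comparisons of 4 hairpins with exact two-sided permutation tests of 4 against 4 libraries, 12 tests in all. By these 0 passed after Benjamini-Hochberg adjustment, and 0 had an unadjusted p under 0.05; the smallest exact p was 0.0857 and the smallest that 4 against 4 allows is 0.0286. A lone ratio at that p would have an adjusted p of 0.343, and 7 of the 12 would have to reach it for any to pass, so the adjusted outcome says little. In MI P7 against sham P7 hearts the log2 ratio of mir-127 was -4.85 ± 0.29 and -4.38 ± 0.41 (mean ± SD, n = 4 each; exact permutation p = 0.143, adjusted 0.457). In MI P1 against sham P1 hearts it was -1.44 ± 0.53 and -2.47 ± 1.54 (mean ± SD, n = 4 each; exact permutation p = 0.314, adjusted 0.457), a difference of 1.03 that was -0.24 without the code 1103 libraries and 2.31 without the code 1078 libraries. In sham P7 against sham P1 hearts the difference was -1.90 (exact permutation p = 0.0857, adjusted 0.457).

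At 21 days, with 3 against 3 libraries, an exact test of the arm ratios cannot go below 0.1, so values only are given. The log2 ratio of mir-136 averaged -1.23 ± 0.20 in MI P7 hearts, -1.02 ± 0.07 in sham P7 hearts, -0.92 ± 0.11 in MI P1 hearts and -0.86 ± 0.13 in sham P1 hearts (mean ± SD, n = 3 each). For mir-434 it averaged -2.80 ± 0.37 in MI P7 hearts and -3.03 ± 0.07 in sham P7 hearts, and MI P7 replicate 3 stood alone at -2.37. That library also had the lowest mir-127 ratio, at -7.40, against -6.63 and -6.31 in the other MI P7 libraries and -6.72 to -6.18 in sham P7 hearts. The groups overlapped for all 4 hairpins in this comparison.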

How the data were processed

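The authors deposited whole-number counts per pair of hairpin and mature miRNA for each library, with no normalization. Bowtie2 2.2.2, edgeR and the GRCm38 build stand in the submitters' processing notes, with no role; no source used here gives the trimming, the counter or whether molecular identifiers were used. Groups came from the labels. The highest count over hairpins was kept per mature name, giving 1485 names. Within each follow-up the 4 groups were fitted together with edgeR 4.0.16 in R 4.3.3 (filterByExpr with a minimum count of 10, library sizes recomputed after it, TMM, robust quasi-likelihood test), and p-values were adjusted over all tested miRNAs. The biological coefficient of variation was 0.545 at 3 days and 0.250 at 21 days. The fit was tested on simulated data. Exact permutation tests used SciPy. All 9 members are named, with the 5 most similar miRNAs per follow-up and the 2 highest and 2 lowest calls per list at most. Alternatives were other scalings, filters, tools (DESeq2 1.42.0, limma 3.58.1 with voom), fits of fewer groups, title code, lane and leaving out each library. The floors cover counting error only. Each SE of a log2 fold change came from the F statistic of the quasi-likelihood test, so it also holds the spread between libraries. The members and lists were chosen with earlier results of these data known.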

Additional observations from a re-analysis of the deposited data

Results flagged for a closer look

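In MI P1 hearts at 3 days, miR-136-3p reached 68.9 CPM in replicate 2, against 21.0, 26.2 and 28.6 CPM in the other 3 libraries, a gap large against the range of the group. This library also had the lowest miR-127-3p of its group (211 CPM), the highest miR-434-5p (683 CPM) and the highest deposited count (13.0 M). Over 52 checks of this kind, chance marks about 1 in 20.

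For miR-136-3p at 21 days the MI effect at P7 was larger than that at P1 by 1.00 ± 0.26 (log2, SE), with an edgeR adjusted p of 0.0320 for the interaction. MI P7 hearts lay above sham P7 hearts in 3 of 3 libraries, and MI P1 hearts overlapped sham P1 hearts.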

How the results depend on the processing

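At 21 days the MI effect at P7 was positive for every member tested under every alternative. The filter of a mean of at least 10 CPM tested 7 members, and the other alternatives tested all 9. From 2 to 8 members were called when single libraries were left out, beside 9.76 to 31.0% of all tested miRNAs. With only the groups compared 2 were called, beside 5.18%. The interaction called 2 members with DESeq2 size factors (9.70% of all tested miRNAs), 8 with total count scaling (22.9%) and 3 with no filter (7.02%). It called 4 with a mean of at least 10 CPM (12.7%), 5 with DESeq2 (15.2%) and 2 with counts summed over hairpins (9.97%). With lane it called 0 (0%) and with the title number as a replicate block 0 (5.52%). Leaving out single libraries gave 0 to 6 (2.58 to 19.1%). The title number is not stated to mark a litter or day. Same-numbered libraries deviated together (r over 0.1) in 2 of 7 pairs, with r from -0.34 to 0.16. So few correlations cannot decide whether the number pairs libraries. The block left 4 calls for MI at P7, beside 14.2% of all tested miRNAs. Sham P7 against sham P1 at 21 days called 1 member (miR-434-3p, lower) with only the groups compared. The share of all tested miRNAs called in that fit is not given here, so this count is not read as particular to the members. At 3 days MI at P1 called 1 member with DESeq2 (27.4% of all tested miRNAs) and 7 without code 1078 (75.8%). Leaving out single libraries gave 0 to 3 (0 to 36.0%). MI at P7 called 4 with total count scaling (13.0%), 2 without code 1103 (19.3%), 3 without code 1078 (19.2%) and 2 with only the groups compared (19.6%). The interaction called 7 without code 1078 (65.6%). Sham P7 against sham P1 called 7 without code 1103, beside 352 of all 483 tested miRNAs (72.9%). By limma-voom it called 2 (15.5%), and 0 (0%) with libraries of a title code treated as a block. With only the groups compared it called 0 (0%), and with single libraries left out 1 to 3 (3.66 to 40.2%). Reversed in that comparison were miR-431-3p (1.32) and miR-433-3p (2.22), both higher without code 1103, and miR-136-5p (6.38) without code 1078, where both remaining sham P1 libraries had 0 reads, so this value is no bound. The cause of these changes was not tested. Of the other alternatives for single members, 72 gained and 34 lost a call. Total count scaling moved the median of all miRNAs in MI P7 against sham P7 at 21 days to 0.38, against 0.03, and the calls to 151 higher and 16 lower, against 79 and 53; at 3 days DESeq2 size factors moved medians too (interaction 0.12 against 0.42). Depth at 3 days limits the arms of mir-136, with 0 reads in some libraries.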

Other observations

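The other arm of mir-433, miR-433-5p, is in the files but is no member. At 3 days it was at 0 CPM in all MI P7 and sham P7 libraries, at 0.814 to 2.05 CPM in MI P1 hearts, and in sham P1 hearts at 0 in both code 1103 libraries and at 0.699 and 1.13 CPM in the code 1078 libraries. The 3 reads that a count of 0 allows come to 1.61 to 3.78 CPM in the 10 libraries at 0, so these zeros do not show a lower level. At 21 days it stayed between 0.165 and 1.0202 CPM in all 12 libraries.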
